A study of Gallus gallus with 4 samples.

Results

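The genes described here are chicken genes for RNA processing, nucleolar function and RNA polymerase subunits, followed through c-Myc chromatin immunoprecipitation sequencing (ChIP-seq) of myotubes and myoblasts. They were chosen by symbol family among the genes to which at least 1 peak was assigned, with no use of peak height or position: SR proteins, hnRNP and PTBP proteins, spliceosome components, DEAD and DEAH box helicases, RBM, CELF, ELAVL and MBNL proteins, 3′ end, export, Integrator and tRNA processing factors, nucleolin, UTP factors and POLR subunits. 75 such genes were named in at least 1 peak list, out of 4832 genes named in all. 20 of them were named in the myotube list and 73 in the myoblast list, through 23 of 1061 myotube peaks and 229 of 19354 myoblast peaks. The study asked which genes c-Myc targets in each cell state. Primary cells from skeletal muscle of chicken embryos, at passage 1, were either induced to form myotubes in RPMI-1640 with 2% horse serum or kept proliferating as myoblasts in RPMI-1640 with 15% fetal bovine serum. Each state had 1 library made with a c-Myc antibody and 1 made with control IgG, 4 libraries in all. No genotype or transgene is named in the labels, and whether cells of several embryos were pooled is not given in the sources used here.

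c-Myc is a transcription factor that binds DNA together with MAX, often at promoters, and it is known for driving cell growth. Genes for ribosome production, pre-mRNA splicing and RNA polymerases are among its best known targets in mammalian cells. Myoblasts are dividing muscle precursors, and myotubes are the fused, non-dividing cells they form. Regulators such as PTBP1, RBM24, MBNL and CELF proteins are known in mammals for the change of splicing pattern that goes with muscle differentiation.

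The c-Myc libraries held 8.65M tags (aligned reads, counted in steps of 0.5) in myotubes and 11.5M in myoblasts, and the IgG libraries held 19.3M in myotubes and 16.1M in myoblasts. The IgG library was thus 2.23 times as deep as the c-Myc library in myotubes and 1.40 times in myoblasts, and tags of single peaks are given unscaled. Every peak was 154 bp wide in the myotube list and 200 bp in the myoblast list. The peak score is the authors' own: it is the c-Myc tags that the peak caller counted, scaled to a library of 10M tags, to within 0.05. Tags given here for single peaks were counted again at annotation and can differ from the count behind the score. The peak caller's own score, in tags, was at least 11 in the myotube list and 12 in the myoblast list. If that score scales with depth and width, the myotube minimum equals a score of 18.9 in myoblasts, so that weaker peaks could enter the myoblast list than the myotube list. Without replicates, no difference between the states could be tested, and all intervals cover counting error only. A gene missing from a list is therefore a gene with no listed peak, not a gene shown to be unbound. Peak lists carry no expression values, so the labelled cell types were not checked against markers.

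A promoter peak is one whose centre lay within 1000 bp of the transcription start site (TSS) of its nearest gene. In myotubes 5 of the 75 genes had one, which is 6.67% (exact 95% interval 2.20 to 14.9%), against 1.37% of all genes named in either list. In myoblasts 33 of 75 had one, 44.0% (32.5 to 55.9%), against 22.0% of all named genes and 21.7% of the named genes outside the set. SRRM1 and SRSF6, both acting in pre-mRNA splicing, had a promoter peak in both states, 2 of 75 (2.67%) against 18 of all 4832 named genes (0.373%). CSTF2, RBM24 and THOC3 had one in the myotube list alone, 4% against 0.993% of all. All of them lost it with a window of 500 bp, and also with a fold over IgG of at least 6. In the myoblast list alone 31 genes had one, 41.3% against 21.6% of all, and 39 had one in neither list, 52.0% against 77.0%.

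These counts moved with the window and the limits on peaks. With a window of 500 bp, 2 genes had a promoter peak in myotubes (2.67% against 0.931% of all) and 31 in myoblasts (41.3% against 16.8%). With a window of 5 kb, 7 had one in myotubes (9.33% against 2.98%) and 41 in myoblasts (54.7% against 40.6%). With a fold over IgG of at least 6, 2 had one in myotubes (2.67% against 1.06%) and 25 in myoblasts (33.3% against 14.4%). Among the stronger 50% of peaks, 4 had one in myotubes (5.33% against 0.849%) and 20 in myoblasts (26.7% against 15.2%).

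**Figure D1:**
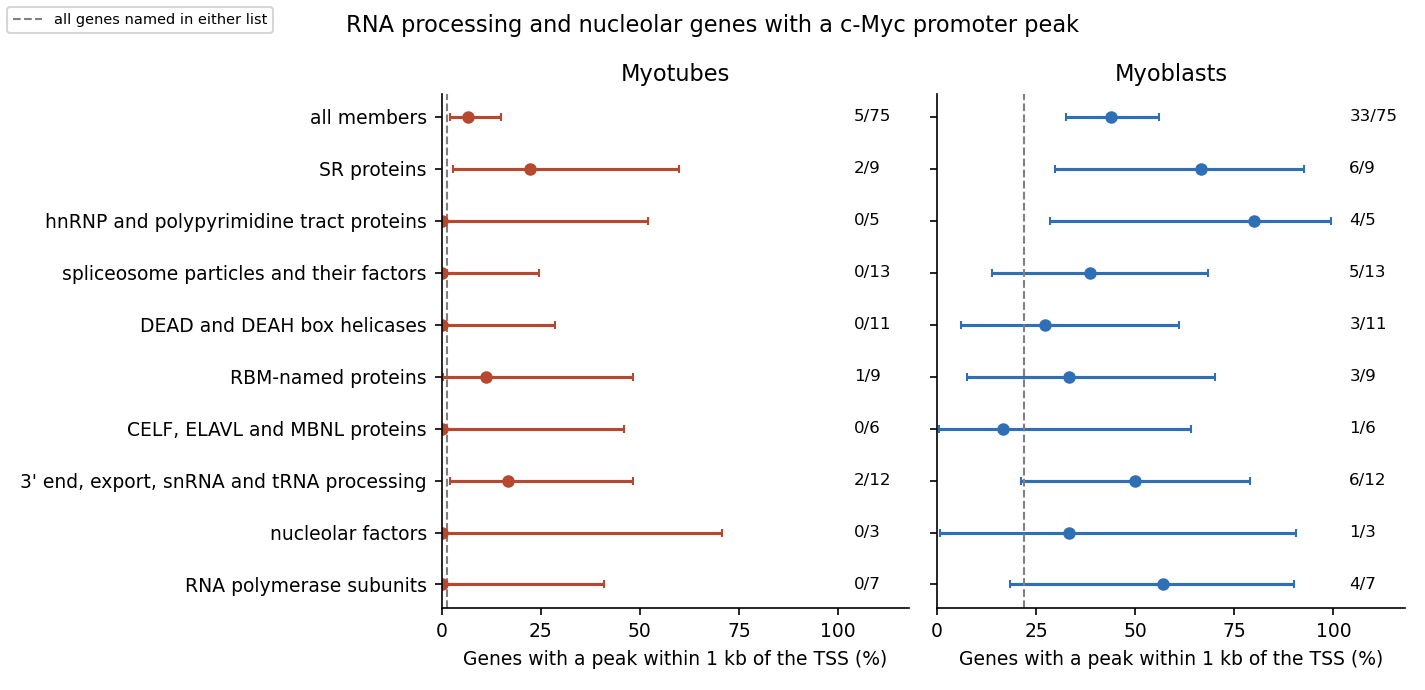
Share of genes with a c-Myc peak within 1 kb of the TSS in myotubes (left) and myoblasts (right), in percent, for all 75 genes and by role, with exact 95% intervals and the counts at the right. The dashed line is the share of all genes named in either list, 1.37% in myotubes and 22.0% in myoblasts; SR and hnRNP genes had the highest shares in myoblasts, with wide intervals that overlap those of the other roles.

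These shares depend on which genes count as measured, since a gene is named only if some peak lies nearest to it. With every gene of the symbol pattern that has a curated RefSeq transcript added, the set grew to 125 symbols, 50 of them without any peak. Genes were added by exact symbol, which 72 of the 75 share with RefSeq. A gene with another RefSeq symbol, such as CPSF3L (INTS11), could thus count again as a gene without a peak. Such double counts would lower the shares, for the set and for all genes. That table is of a newer assembly and may hold genes that the authors' annotation lacked. The shares were then 4% in myotubes against 0.858% of 7690 genes, and 26.4% in myoblasts (18.9 to 35.0%) against 13.8%.

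SR proteins, which bind exonic enhancers and recruit the spliceosome, had promoter peaks for 2 of 9 named genes in myotubes and 6 of 9 (66.7%) in myoblasts. The interval was 2.81 to 60.0% in myotubes, against 1.37% of all named genes, and 29.9 to 92.5% in myoblasts, against 22.0%. SRSF6 had 14.5 c-Myc and 0 IgG tags in myotubes (score 15.6, 235 bp upstream of the TSS), against 16 c-Myc and 4 IgG tags in myoblasts (score 13.1, 202 bp downstream). SRRM1, a splicing coactivator, had 11 c-Myc and 1.5 IgG tags in myotubes (score 12.7, 257 bp upstream), against 16 c-Myc and 5 IgG tags in myoblasts (score 12.6, 19 bp downstream). Per 10M tags the scores of both genes thus lay within a few units of each other in the 2 states, at positions that did not overlap. These scores are not corrected for peak width, which was 154 bp in myotubes and 200 bp in myoblasts. SRSF1, the classical SR splicing activator, had the highest SR promoter peak, with 26.5 c-Myc tags (exact Poisson 95% interval 17.4 to 38.7) and 0 IgG tags in myoblasts. That peak lay on chromosome 19 from 8706327 to 8706527 (galGal4), 392 bp upstream of the TSS, and ranked 15 among all 1106 myoblast promoter peaks. A second SRSF1 peak fell just outside the promoter window, 1102 bp downstream, with a score of 17.4. SRSF5 had 17.5 c-Myc and 0 IgG tags 91 bp upstream, SRSF2 had 14.5 and 4 tags 278 bp upstream, and SRSF7 had 13.5 and 5 tags 741 bp upstream. SRSF3, SRSF11 and SRSF5A had myoblast peaks, the closest 4.64 to 30.5 kb from the TSS.

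Among hnRNP and polypyrimidine tract proteins, which coat nascent transcripts and often repress exons, 0 of 5 named genes had a promoter peak in myotubes (upper limit 52.2%) and 4 of 5 (80.0%) in myoblasts. The myotube limit covered the 1.37% of all named genes, and the myoblast interval was 28.4 to 99.5%, against their 22.0%. PTBP1, the repressor of many muscle and neural exons, had 16 c-Myc and 0 IgG tags 331 bp upstream of its TSS in myoblasts. Its single myotube peak was 14.2 kb upstream, with 11.5 c-Myc and 3 IgG tags. HNRNPM had 16 c-Myc and 2.5 IgG tags 61 bp upstream, and HNRNPR had 14 and 1.0 tags 371 bp upstream. HNRNPAB had a pair of promoter peaks with centres 928 bp apart, on either side of the TSS, each at a score of 11.3, near the low end of the promoter peaks of the set. HNRNPDL was the exception, with its closest peaks 30 kb away in myotubes and 3.05 kb away in myoblasts.

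Spliceosome particles and their factors, grouped by symbol, had promoter peaks for 0 of 13 named genes in myotubes (upper limit 24.7%) and 5 of 13 (38.5%) in myoblasts. The myotube limit covered the 1.37% of all named genes, and the myoblast interval, 13.9 to 68.4%, covered their 22.0%. PRPF38A, needed for activation of the spliceosome, had 21 c-Myc and 5 IgG tags 384 bp downstream of its TSS in myoblasts. LSM8 and LSM3, ring proteins on U6 snRNA, had 18 c-Myc and 0 IgG tags 5 bp upstream and 16 c-Myc and 3.5 IgG tags 82 bp upstream. PRPF3, a protein of the U4/U6 particle, had 13.5 c-Myc and 2.0 IgG tags. SNRPD3, of the Sm ring shared by spliceosomal particles, had promoter peaks with 13 and 12.5 c-Myc tags whose centres were 504 bp apart. The named genes for the other Sm proteins, SNRPB, SNRPD1, SNRPE and SNRPF, had no promoter peak in either list, with closest myoblast peaks 2.16 to 26.2 kb away. U2AF1, the factor that reads the 3′ splice site, had a myotube peak 1280 bp downstream of its TSS, outside the promoter window, with 10 c-Myc and 3 IgG tags. The closest myoblast peaks of LSM7, LSM14A, SF3A1 and U2AF1 were 14.8 to 22.5 kb from the TSS. LSM14A was counted in this group by its symbol alone. Its gene description does not tie it to U6 snRNA, as those of LSM3, LSM7 and LSM8 do.

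DEAD and DEAH box helicases remodel RNA and RNA-protein complexes, and 0 of 11 named genes had a promoter peak in myotubes (upper limit 28.5%) and 3 of 11 (27.3%) in myoblasts. DHX30, a helicase of mitochondrial RNA granules, had 20 c-Myc and 3 IgG tags 25 bp upstream of its TSS in myoblasts. DDX27 and DDX10, both helicases of ribosome assembly, had 14 c-Myc and 1.5 IgG tags 55 bp downstream and 13 c-Myc and 1.5 IgG tags 324 bp upstream. The helicase limit in myotubes covered the 1.37% of all named genes, and the helicase share in myoblasts was near their 22.0%. The other 8 helicase genes, DDX1, DDX19B, DDX3X, DDX4, DDX49, DDX52, DHX15 and DHX38, had their closest myoblast peaks 4.18 to 47.3 kb from the TSS.

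RBM-named genes are a mixed group joined by an RNA recognition motif, with promoter peaks for 1 of 9 in myotubes and 3 of 9 (33.3%) in myoblasts. The myotube interval, 0.281 to 48.2%, covered the 1.37% of all named genes, and the myoblast interval, 7.49 to 70.1%, covered their 22.0%. RBM24, a regulator of muscle splicing and differentiation, had 12 c-Myc and 4.5 IgG tags 944 bp upstream of its TSS in myotubes, close to the edge of the window. Its 3 myoblast peaks all lay farther off, the closest at 8.12 kb. RBM19, a nucleolar factor of rRNA processing, had 23.5 c-Myc and 5.5 IgG tags 295 bp upstream in myoblasts, and RBM25, which acts in splice site choice, had 22.5 and 3 tags 75 bp upstream. RBM7, of the complex that guides the nuclear exosome, had 15.5 c-Myc and 1.5 IgG tags. RBM19, RBM25 and RBM7 each had this promoter peak as their only myoblast peak and no myotube peak. RBMS1, RBM45, RBM22 and RBM12B had their closest myoblast peaks 6.08 to 79.7 kb away, and RBM6 had a single peak, 12.1 kb downstream of its TSS in myotubes.

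CELF, ELAVL and MBNL proteins set tissue-type splicing and mRNA stability, and had promoter peaks for 0 of 6 named genes in myotubes (upper limit 45.9%) and 1 of 6 (16.7%) in myoblasts. The myotube limit covered the 1.37% of all named genes, and the myoblast interval, 0.421 to 64.1%, covered their 22.0%. MBNL3 had 14 c-Myc and 4.5 IgG tags 340 bp downstream of its TSS in myoblasts. MBNL2, a muscleblind regulator of muscle splicing, had 10 myoblast peaks, none closer than 12.2 kb, and 1 myotube peak 130 kb upstream. CELF2, ELAVL1, ELAVL4 and MBNL1 had myoblast peaks with the closest 7.16 to 37.3 kb away.

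Factors of 3′ end formation, export, snRNA and tRNA processing had promoter peaks for 2 of 12 named genes in myotubes and 6 of 12 (50%) in myoblasts. The myotube interval was 2.09 to 48.4%, against 1.37% of all named genes, and the myoblast interval, 21.1 to 78.9%, covered their 22.0%. CSTF2, which binds RNA beyond the cleavage site, had 13 c-Myc and 6 IgG tags 799 bp upstream of its TSS in myotubes, and no myoblast peak. THOC3, of the THO export complex, had 13.5 c-Myc and 6 IgG tags 536 bp downstream in myotubes, and its closest myoblast peak was 3.44 kb from the TSS. The IgG tags of CSTF2 and THOC3 were the highest of any promoter peak of the set; per 10M tags they came to 3.11, against up to 3.42 in myoblasts, at RBM19. In myoblasts, CPSF2, a subunit of the cleavage and polyadenylation complex, had 16 c-Myc and 0.5 IgG tags 161 bp upstream, and THOC7, also of the THO complex, had 14.5 and 2.5 tags 555 bp downstream. Integrator, which cuts snRNA precursors, had myoblast promoter peaks at INTS9 (14 c-Myc and 3 IgG tags), INTS2 (12.5 and 0 tags) and CPSF3L (13.5 and 2.0 tags), the gene that RefSeq now calls INTS11. The 3 Integrator peaks lay 105 bp upstream, 206 bp upstream and 4 bp downstream of their start sites. PABPC1, CPSF6, THOC5 and INTS10 had their closest myoblast peaks 1.75, 13.9, 19.8 and 21.5 kb away.

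Nucleolar genes were few, with 3 named genes matching the pattern. NCL, which encodes the abundant nucleolar protein nucleolin, had 18 c-Myc and 4.5 IgG tags 63 bp downstream of its TSS in myoblasts, on chromosome 9 from 14757679 to 14757879, and no myotube peak. UTP6 and UTP15, of the small subunit processome, had no promoter peak in either list, with closest myoblast peaks 56.2 and 6.22 kb away.

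RNA polymerase subunits had promoter peaks for 0 of 7 named genes in myotubes (upper limit 41.0%) and 4 of 7 (57.1%) in myoblasts. The myotube limit covered the 1.37% of all named genes, and the myoblast interval, 18.4 to 90.1%, covered their 22.0%. POLR3F, a subunit of RNA polymerase III, had 22.5 c-Myc and 1.0 IgG tags 84 bp upstream of its TSS in myoblasts. POLR2H, a subunit common to the nuclear RNA polymerases, had 19.5 c-Myc and 4 IgG tags 71 bp upstream, and POLR2D, of RNA polymerase II, had 17 and 1.5 tags 130 bp downstream. POLR2B, POLR2C and POLR3A had their closest myoblast peaks 4.25 to 61.0 kb away, and no subunit gene particular to RNA polymerase I was among the 75.

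**Figure D2:**
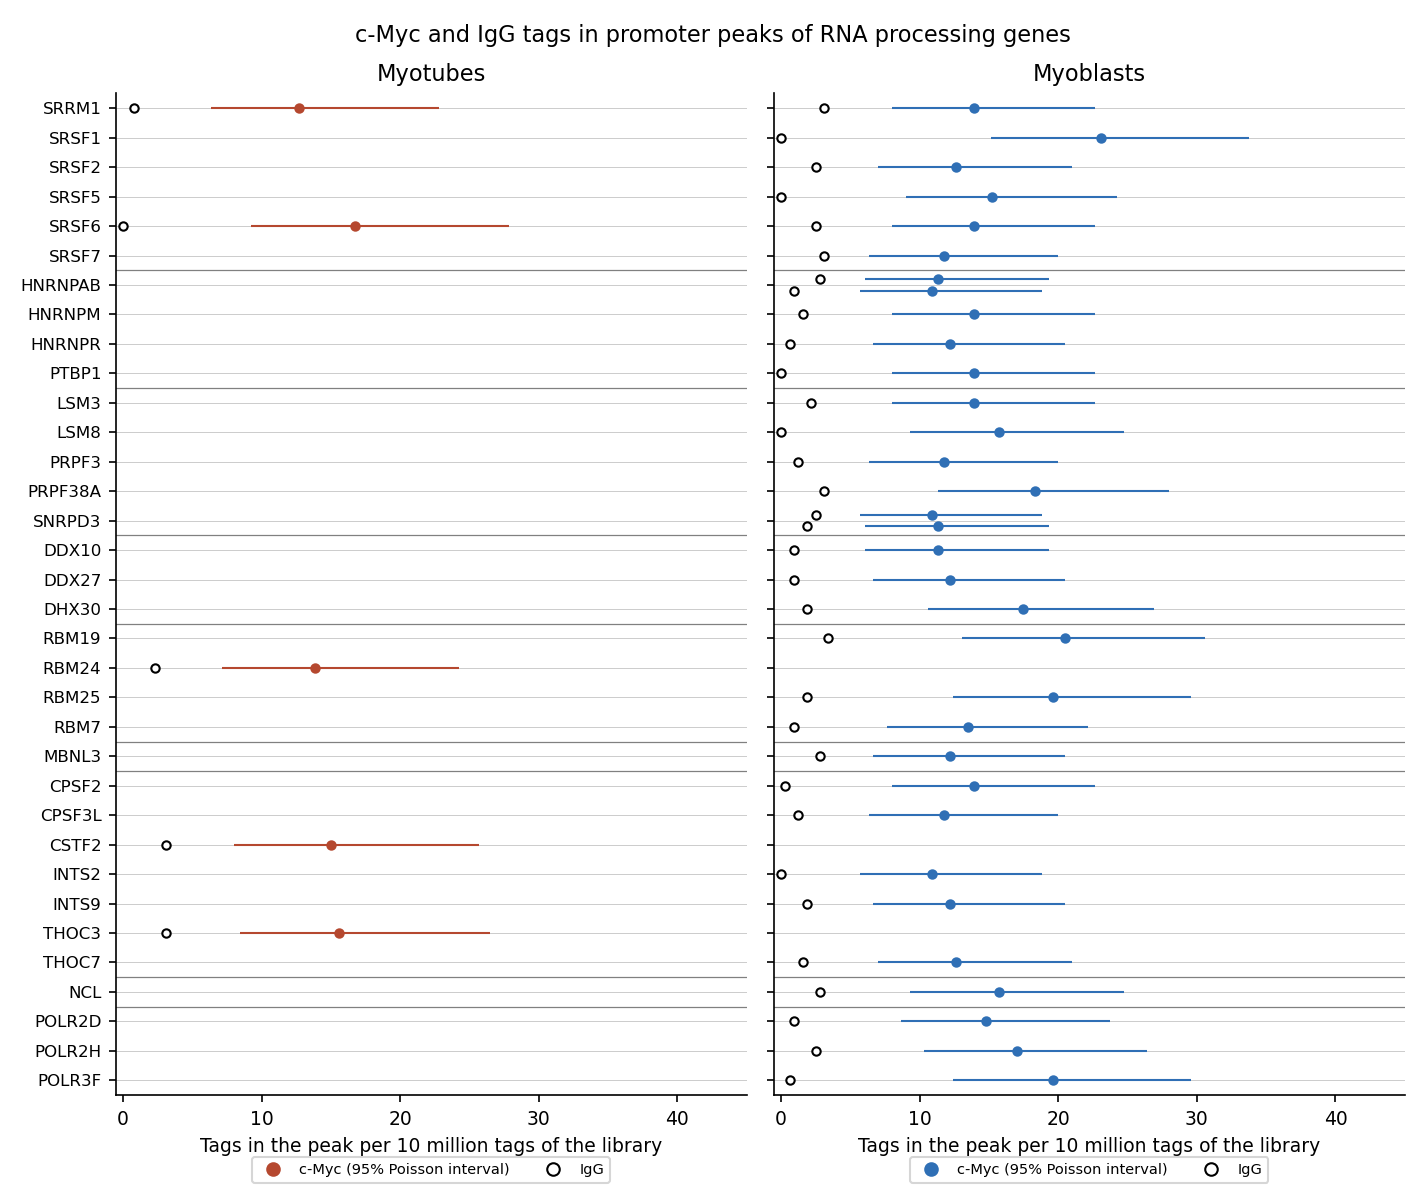
c-Myc tags (filled, with exact 95% Poisson intervals) and IgG tags (open) in each promoter peak, per 10M tags of the library, for the genes with a promoter peak in either state that are reported here, myotubes left and myoblasts right, ordered by role. An empty line means no listed promoter peak; SRSF1 lies highest, and most intervals of the other genes overlap.

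The promoter peaks of these genes were close in height to promoter peaks in general. The median score was 13.9 over 5 peaks in myotubes, against 13.9 over all 67 myotube promoter peaks, and 13.1 over 35 peaks in myoblasts, against 13.5 over all 1106 myoblast promoter peaks. In myoblasts 3 of the 35 peaks (8.57%), those of SRSF1 and RBM25 among them, had a caller score at or over 18.9, the level that matches the myotube minimum, against 14.3% of all myoblast promoter peaks. For the other 30 genes with a myoblast promoter peak, a peak of the same strength would have been under the myotube minimum on that scale. SRRM1 and SRSF6 are among these 30 and did have a myotube promoter peak. For the rest, the absence of a myotube promoter peak cannot be told apart from the stricter list. IgG tags had a median of 3 in the set and in all myoblast promoter peaks. The IgG count was 0 in 5 of the 35 peaks (14.3%), against 5.15% of all; a count of 0 allows up to 3 tags.

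Myoblast promoter peaks of the set lay close to the TSS. Their median distance was 161 bp, against 245 bp for all promoter peaks, and 14 of 35 (40.0%) lay within 100 bp, against 27.0%. Within 500 bp lay 31 of 35 (88.6%), against 75.4%. 24 of 35 (68.6%) were upstream of the TSS, against 57.8%. These myoblast shares rest on 35 peaks and carry no intervals. Whether they differ from those of all promoter peaks was not tested. In myotubes 4 of the 5 peaks (80.0%) were upstream, against 70.1% of all. They were spread from 944 bp upstream to 536 bp downstream, with 0 within 100 bp, against 17.9% of all 67 myotube promoter peaks. With 5 peaks, a count of 0 cannot be told apart from that share.

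**Figure D3:**
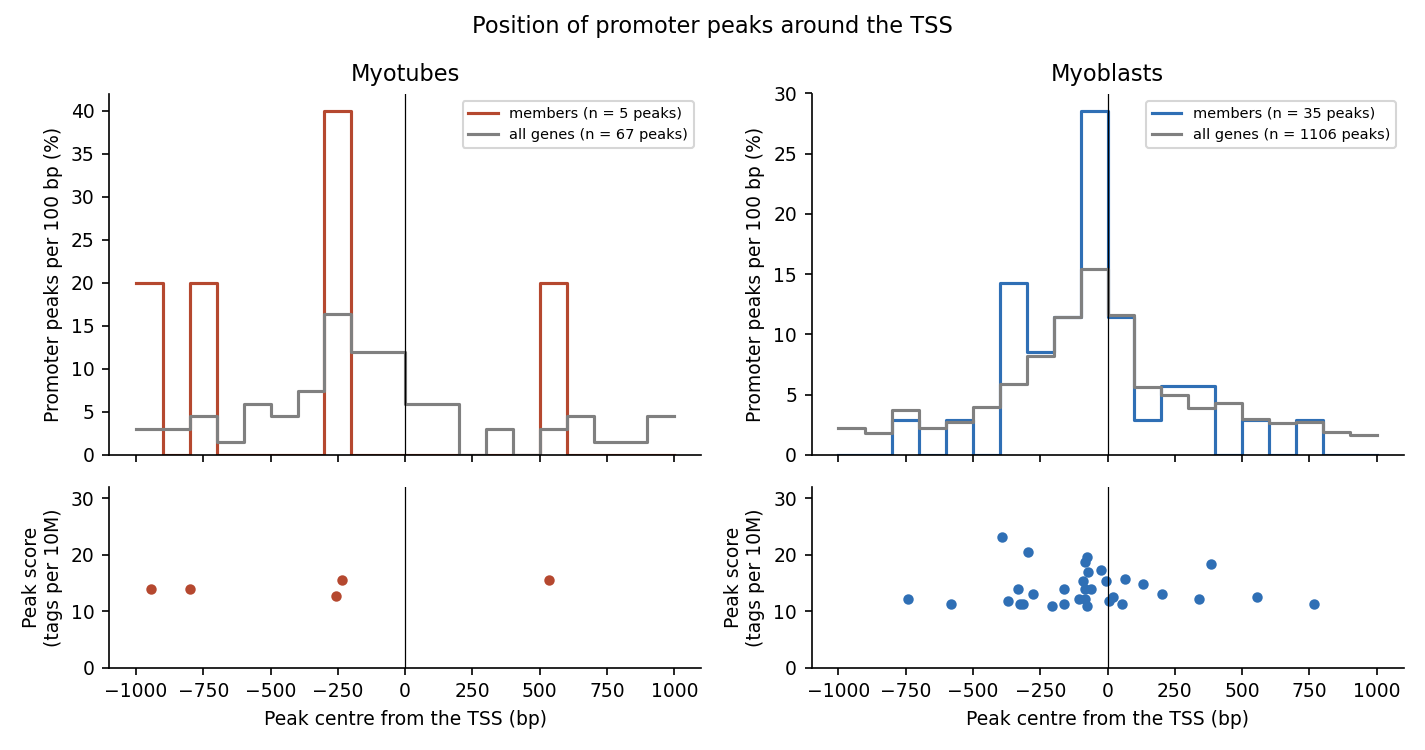
Position of promoter peaks around the TSS (bp, negative upstream) in myotubes (left) and myoblasts (right). The upper panels give the share of peaks per 100 bp for the set (coloured) and all genes (grey). The lower panels give the score of each peak reported here in tags per 10M. Within 100 bp of the TSS lie 14 of the 35 myoblast peaks and 0 of the 5 myotube peaks, which are too few to compare the states.

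The states were next compared at the 20 genes with myotube peaks, of which 18 were named in both lists and CSTF2 and RBM6 in the myotube list alone. Of the 23 myotube peaks of the set, 0 shared any base with a myoblast peak, which allows a share of up to 14.8%, against 74 of 1061 (6.97%) for all myotube peaks. The closest pairs were at the promoters of SRRM1, where centres were 276 bp apart and edges 99 bp, and SRSF6, where they were 437 bp and 260 bp apart. At DDX27 the 3 myotube peaks lay 26.1 to 51.7 kb upstream of the TSS, and the nearest myoblast peaks were 914 bp, 1.47 kb and 11 kb from them. RBMS1, HNRNPDL, SRSF2 and SF3A1 had myotube and myoblast peaks 1.03, 1.63, 1.79 and 2.31 kb apart. Other pairs lay farther apart: the nearest myoblast peak was 10.8 kb from the myotube peak at UTP6, 18.3 kb at MBNL2, 21.0 kb at U2AF1, 27.0 kb at POLR2B and 61.2 kb at THOC7, and 20.9 and 25.7 kb from the pair at INTS9. Listed peaks of the 2 states thus shared no base at these genes, though at SRRM1 and SRSF6 both lay at the same promoter. How exactly peaks with so few tags are placed was not tested. Most myotube peaks of all genes also shared no base with a myoblast peak. The 6.97% that did lies within the limit of 14.8%.

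**Figure D4:**
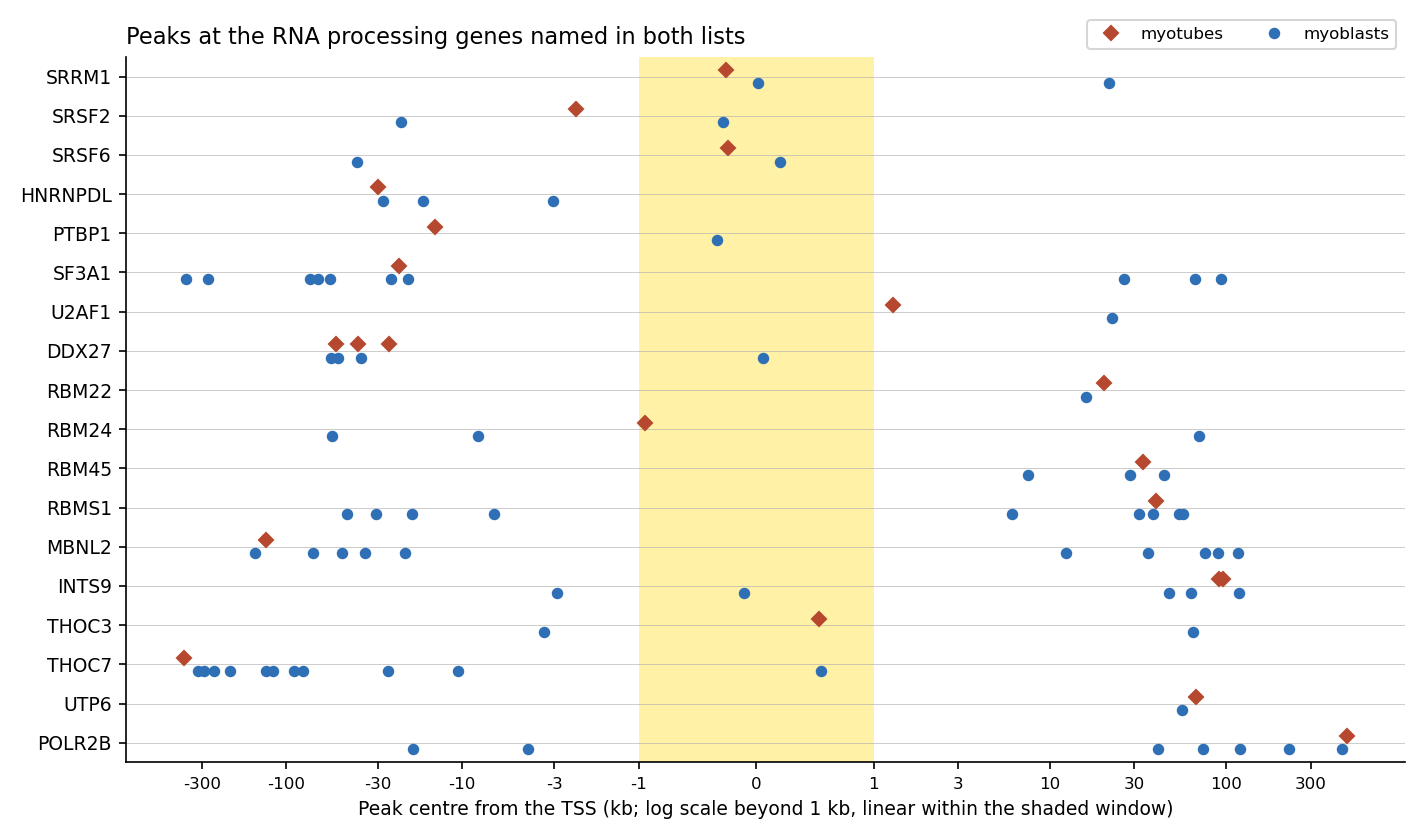
Position of every peak at the 18 genes named in both lists, as distance from the TSS in kb (log scale beyond 1 kb, linear in the shaded promoter window), with myotube peaks as diamonds and myoblast peaks as circles. SRRM1 and SRSF6 have both kinds in the window. No myotube peak of the set overlapped a myoblast peak, against 6.97% of all myotube peaks that did.

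Most peaks assigned to these genes lay away from promoters. Within 1 kb of the TSS were 21.7% of the 23 myotube peaks (7.46 to 43.7%), against 6.31% of all myotube peaks, and 15.3% of the 229 myoblast peaks (10.9 to 20.6%), against 5.71% of all myoblast peaks. Over 200 kb away were 8.70% of the myotube peaks, against 15.5% of all, and 6.99% of the myoblast peaks, against 19.3% of all. The median distance was 26.1 kb against 43.8 kb in myotubes and 30.3 kb against 57.0 kb in myoblasts. How far the spacing of genes, which differs between parts of the genome, bears on these distances was not tested.

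**Figure D5:**
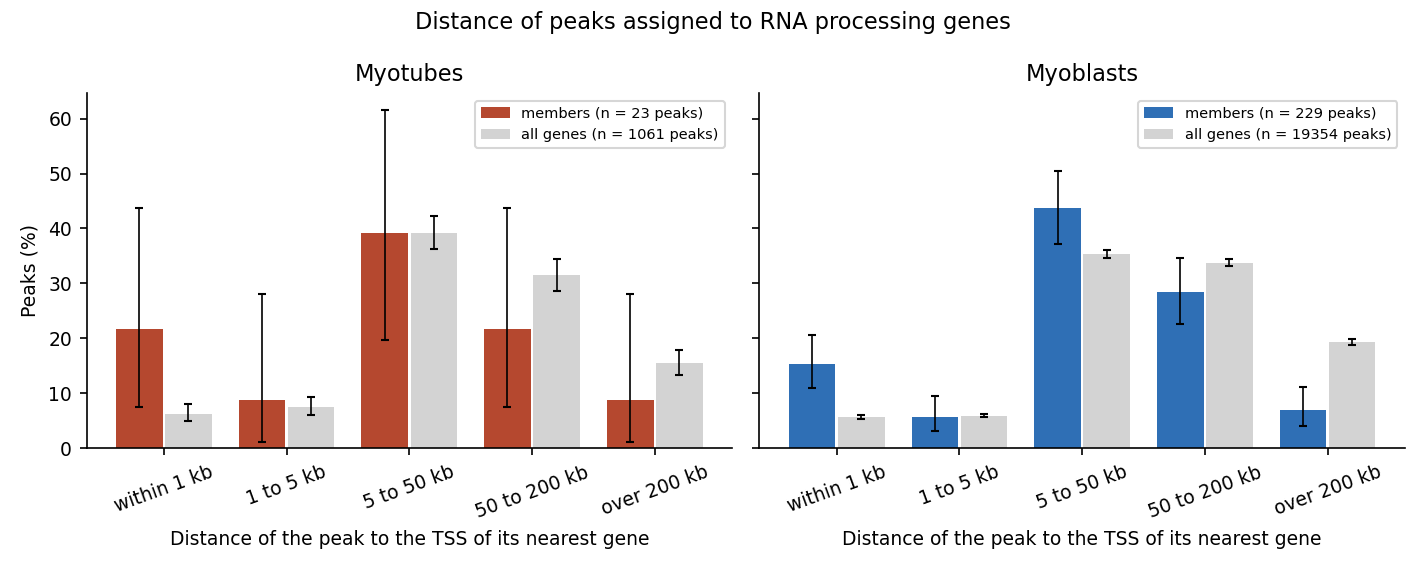
Share of peaks by distance to the TSS of the nearest gene, in percent with exact 95% intervals, for the set (coloured) and all genes (grey), myotubes left and myoblasts right. In myoblasts the set had 15.3% of its peaks within 1 kb against 5.71% of all peaks, and 6.99% over 200 kb away against 19.3%.

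Per gene, the set had a median of 1 peak in myotubes and 2 in myoblasts, against 1 and 3 for all named genes. THOC7 and DDX10 had 11 myoblast peaks each, SF3A1 and MBNL2 10 each, and RBMS1 9. In myotubes DDX27 had 3 and INTS9 had 2. By score, the highest myoblast peak of the set away from promoters was at SF3A1, a subunit of the U2 particle, 20.2 kb upstream (score 22.2, with 24 c-Myc and 6 IgG tags). LSM3 had a score of 21.8, with 25 c-Myc and 3 IgG tags, 11.7 kb downstream. PABPC1, the cytoplasmic poly(A) binding protein, and DDX4, a germ cell helicase, had peaks of 25 and 24 c-Myc tags (scores 21.8 and 20.9). The annotation labels the PABPC1 peak as low-complexity sequence and the DDX4 peak as a simple repeat. POLR2D had 24 c-Myc tags (score 20) 69.4 kb downstream in a CpG island. In myotubes the highest by score were at DDX27 (14 c-Myc and 1.0 IgG tags, 51.7 kb upstream) and HNRNPDL (13.5 and 6 tags, 30 kb upstream), both at 15.6. RBM22 and THOC7, both at a score of 13.9, had 14.5 and 12 c-Myc tags 20.2 kb downstream and 375 kb upstream. Scores away from promoters had a median of 13.3 in myotubes, against 13.3 for all, and 12.8 in myoblasts, against 12.6.

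Microchromosomes, the small gene-dense chromosomes of birds (here all but 1 to 10 and Z), held 35 of the 75 (46.7%) against 29.9% of all named genes. Within microchromosomes the promoter shares were 8.57% in myotubes against 1.66% of all genes there, and 51.4% in myoblasts (34.0 to 68.6%) against 23.0%. On chromosomes 1 to 10 and Z they were 5% in myotubes against 1.24%, and 37.5% in myoblasts (22.7 to 54.2%) against 21.6%. The shares of the set were above those of all genes within each class. In myoblasts each interval lay above the share of all genes of that class. The myotube shares rest on 3 of 35 genes on microchromosomes and 2 of 40 on chromosomes 1 to 10 and Z. On chromosomes 1 to 10 and Z the myotube interval covered the 1.24% of all genes. On microchromosomes it began only just above their 1.66%.

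Other genes of the same pathways, outside the symbol pattern, were counted from lists, with peak scores given in parentheses. Of 22 named genes among 64 other splicing factors, 0 had a promoter peak in myotubes (upper limit 15.4%) and 6 (27.3%) in myoblasts, among them FUBP1 (24.8), QKI, a regulator of muscle splicing (18.7), and GEMIN6, of the snRNP assembly complex (13.1). Of 21 named genes among 64 other 3′ end, export and decay factors, 1 had a promoter peak in myotubes, the export adaptor ALYREF (12.7), and 9 (42.9%) in myoblasts. These 9 held 3 exosome genes, EXOSC10 (16.6), EXOSC2 (16.1) and EXOSC7 (12.2), the nuclear exonuclease XRN2 (17), and CNOT1 (17) and CNOT7 (13.5) of the deadenylase complex. Of 26 named genes among 96 other nucleolar and ribosome biogenesis factors, 1 had a promoter peak in myotubes, LSG1 (15.0), and 6 (23.1%) in myoblasts, including LSG1 again (13.9), SURF6 (14.4) and IMP4 (12.6). In myoblasts the shares for nucleolar (8.97 to 43.6%) and other splicing factors (10.7 to 50.2%) were near the 22.0% of all named genes. That for 3′ end, export and decay factors (21.8 to 66.0%) was close to that of the 75 genes. Each of these intervals covers 22.0%, so none of these lists can be told apart from all named genes on these counts. The same holds in myotubes, where the intervals were 0 to 15.4%, 0.120 to 23.8% and 0.0973 to 19.6%, against 1.37%.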

How the data were processed

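Chromatin of chicken myotubes and myoblasts was immunoprecipitated with a c-Myc antibody or IgG and sequenced as paired ends, per the labels' protocols. CASAVA 1.8.2, Trimmomatic 0.30, FastQC 0.10.1, Bowtie2 2.1.0, HOMER 4.6 and, as the genome build, galGal4 are listed per the submitters' processing notes, without order or options. In each state the authors called peaks of the c-Myc library over the IgG one and gave each 1 nearest gene, per the file headers. The deposited peak score is the c-Myc tags counted by the caller, scaled to a library of 10M and not corrected for peak width. The deposited signal columns hold unscaled c-Myc and IgG tags over each peak, which can differ from the tags the caller counted. The deposited fold over IgG is a ratio, 4.0 or more in every listed peak. The deposited p-value of the authors' caller against IgG was at most 5.50e-05 in myotubes and 8.09e-05 in myoblasts.

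Genes, peaks and tags were counted in Python 3.11.15 (pandas 2.3.3, numpy 2.4.6), with intervals from scipy 1.17.1 and figures from matplotlib 3.10.9. Shares carry exact (Clopper-Pearson) 95% intervals and tags exact Poisson ones. With 1 library pair per state no test was run. The counting was tested on simulated data. All 75 genes matched a RefSeq gene of the newer assembly GRCg7b by symbol or synonym, used for names. The wider gene background used exact symbols alone. No sequence was used here.

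The genes, lists and comparisons were chosen with earlier results of these data known. Genes named were those with a promoter peak, the 5 with most peaks and the 5 highest peaks away from promoters in each list. Some genes of the set count in its totals but are not reported singly here. Further genes were named once their values had been seen. The alternatives tried were other windows, stricter score and fold limits, lists without repeats or unplaced sequence, equal numbers of peaks, other overlap rules and other gene backgrounds.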

Additional observations from a re-analysis of the deposited data

How the results depend on the processing

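Of 38 alternatives run, 27 left a count within 1.5 times the value reported, or a share or median within its 95% interval, and 11 moved it beyond that. Genes with a myotube promoter peak numbered 2 instead of 5 with a window of 500 bp and with a fold over IgG of at least 6. Genes with a myoblast promoter peak numbered 20 instead of 33 in the upper 50% of the list by score, where the share was 26.7% against 15.2% of all genes. They numbered 6 among as many top myoblast peaks as there are myotube peaks, 8% against 3.10%. That cut fell among peaks tied at a score of 17.4, which were taken in order of chromosome and start. The promoter peak of DHX30, tied at this score, was left out by that order alone, so both shares depend on it. Promoter peaks in both states were found for 4 genes instead of 2 with a window of 5 kb, 1 in the upper 50% by score and 1 at a fold of at least 6. Myotube peaks of the set that met a myoblast peak numbered 2 instead of 0 when edges up to 500 bp apart counted. The share of myoblast peaks in the window was 21.0% instead of 15.3% with a window of 5 kb, and the median promoter score 15.3 instead of 13.1 in the upper 50%, as both follow from their construction. The share of genes with a myoblast promoter peak was 26.4% instead of 44.0% with curated genes added whose symbols carried no peak. That choice was made after seeing the data, like the limit to genes with more than 1 peak (43.1% against 22.3% of all). Unplaced sequence held none of the named genes, and no promoter peak of the set carries a repeat label. The annotation names the promoter at these peaks in place of a repeat, so a repeat under them would not show. The counts over all genes, 66 in myotubes and 1063 in myoblasts, did not change either. Leaving out unplaced sequence, or peaks labelled simple repeat or low complexity, therefore could not change the counts. Stricter overlap rules likewise could not lower a count of 0. Leaving out helicase and RBMS genes could not change the counts for myotubes or for both states, as none of these genes had a myotube promoter peak. These alternatives are among the 27 and say nothing on how stable the results are. In myoblasts, 30 of 63 genes (47.6%) had a promoter peak without helicase and RBMS genes, against 22.0% of all named genes. The search for E-box motifs was not run, since no sequence was used here. No paired analysis was possible because each state has 1 library pair and no result comes from a test. The limits are the absence of replicates, low tag counts per peak (from 10), different peak widths and depths in the 2 lists, and a single nearest gene per peak, so that a neighbour sharing a promoter goes uncounted.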
